A study of Mus musculus with 4 samples.

Results

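The mitochondrial respiratory chain genes were taken as the probe sets with a single gene symbol that begins with Nduf, Uqcr, Atp5, Cox4, Cox5, Cox6, Cox7 or Cox8, or that is Sdha, Sdhb, Sdhc or Sdhd. The rule used names only and no measured value, although earlier results of these data were known when it was chosen. A gene stands below by its brightest probe set. It gave 156 probe sets for 84 genes, out of 20380 probe sets with 1 symbol for 12393 genes. By symbol, 39 of the genes belong to complex I, 4 to complex II, 8 to complex III, 16 to complex IV and 17 to complex V. The complex I group holds 6 core subunits, 28 accessory subunits and 5 assembly factors (Ndufaf genes), which are not subunits. Subunits with other names, such as cytochrome c1 (Cyc1), and those encoded by mitochondrial DNA are outside this choice, as are 8 probe sets that match 1 such symbol among several.

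The cells were mast cells that had been derived over 4 to 6 weeks in 5 ng/ml interleukin-3 from the bone marrow of mice aged 8 to 12 weeks. The mice were Pac1+/+ (wild-type) or Pac1-/-, which lack the MAP kinase phosphatase Pac1, encoded by Dusp2. Cells of both genotypes had been loaded with IgE against dinitrophenyl (100 ng/ml) for 18 h and were then given DNP-HSA, the antigen that crosslinks this IgE on its receptor FceRI, at 20 ng/ml during 2 h. Each genotype had 2 independent cultures, replicates 1 and 2, with 1 array each. Arrays of the same number in both genotypes are called pair 1 and pair 2 here, although the labels do not say that a number marks a shared batch. Over 98% of the cells were positive for both Kit and FceRI, per the labels. No resting culture was analysed here.

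On these arrays the Dusp2 probe set read 167 and 90.7 in wild-type cells and 109 and 75.5 in Pac1-/- cells, replicates 1 and 2 in turn, as in all such pairs that follow. The genotypes overlapped (-0.44 ± 0.51 on the log2 scale, SE; limma adjusted p = 0.888). The position of these probes against the deletion was not analysed here, so they do not check the labels. Log2 values of tested probe sets correlated at 0.885 within pair 1 and 0.75 within pair 2, but within a genotype at only 0.437 (wild-type) and 0.468 (Pac1-/-). Of 11 mast cell markers, 9 read at least 100 on all 4 arrays; the exceptions were the FceRI beta chain gene Ms4a2, low in pair 1, and Mcpt4, which encodes a protease. Among markers of other cells, the macrophage list summed to 7863 and 5960 in pair 1 but 537 and 457 in pair 2, wild-type first. Within that list Cd68 read 7512 and 5638 in pair 1 and 118 and 120.5 in pair 2, while Adgre1 differed little and Csf1r, Mrc1, C1qa, C1qb, C1qc, Marco and Cd163 stayed under 102. Lymphocyte markers (7 of 7) and stromal markers (6 of 6) read below 100 on every array, as did 6 of 8 neutrophil, 3 of 4 erythroid and 7 of 8 muscle markers; the muscle myosin gene Myh1 read 946 and 596 in pair 1 and 4.3 and 4 in pair 2. The ratio of 3' to 5' signal of the beta-actin controls was 109 and 293 in pair 1 and 1.58 and 54.8 in pair 2, wild-type first. That of GAPDH was 0.798 and 1.36, then 0.839 and 191. The part of these differences in the results was not tested.

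The respiratory chain sits in the inner mitochondrial membrane. Complexes I and II pass electrons from NADH and succinate to ubiquinone, complex III passes them to cytochrome c, and complex IV passes them to oxygen. Complexes I, III and IV pump protons, and complex V, the ATP synthase, uses the returning protons to make ATP. In mast cells, as in most cells, degranulation and cytokine synthesis draw on ATP.

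Of the 84 genes, 76 had a brightest probe set with a mean intensity of at least 100 and were tested. The 8 others were Cox4i2, Cox6a2, Cox6b2, Cox7a1, Cox7c, Cox8b, Ndufaf5 and Ndufaf7. Among the tested genes 63 read at least 100 on all 4 arrays, which is 82.9%. This compares with 61.3% of all tested probe sets and 65.7% of all tested genes by their brightest probe set. The brightest array of each of the 76 genes read at least 163.

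No respiratory chain gene differed between the genotypes by limma's test after Benjamini-Hochberg adjustment over all 7770 tested probe sets, of which 0% were called. Their adjusted p lay between 0.866 and 1.00. In these bulk cultures fewer cells of a type and less RNA per cell cannot be told apart. At an unadjusted p under 0.05 there was 1 gene of 76, Atp5g2, which was lower in Pac1-/- cells. The share was 1.32%, against 1.13% of all tested probe sets lower and 2.25% higher at that level. Of all tested genes by their brightest probe set, 0.62% were lower and 2.3% higher at it. The difference, Pac1-/- minus wild-type, was above 0 in 43 genes (56.6%, against 52.8% of all tested probe sets) and below 0 in 33. Its median was 0.069 on the log2 scale, against 0.056 over all tested probe sets. Taken the same way, by the brightest probe set, all 4998 tested genes had a median of 0.10 with 56.1% above 0, so neither value set the respiratory chain genes apart. In 14 genes both Pac1-/- arrays read above both wild-type arrays (18.4%, against 24.3% of all tested probe sets), and in 13 both read below (17.1%, against 13.4%). Of all tested genes by their brightest probe set, 26.1% read above and 11.5% below in this way. The SE of a gene's difference had a median of 0.46 and lay between 0.34 and 2.74. Even for Uqcr11, which had the smallest SE, the 95% confidence interval reached 0.98 log2 units to either side. Differences under that size, and larger ones in genes of larger SE, could not be told from the spread between cultures. Cox8a, for example, had an interval of -2.56 to 0.40. With median centring of each array in place of quantile normalisation, 64 genes were above 0, but the median of all tested probe sets was then 0.66, against 0.85 for these genes. Without Pac1-/- replicate 2 the number above 0 was 27 and the median was -0.19; without Pac1-/- replicate 1 they were 56 and 0.47.

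**Figure D1:**
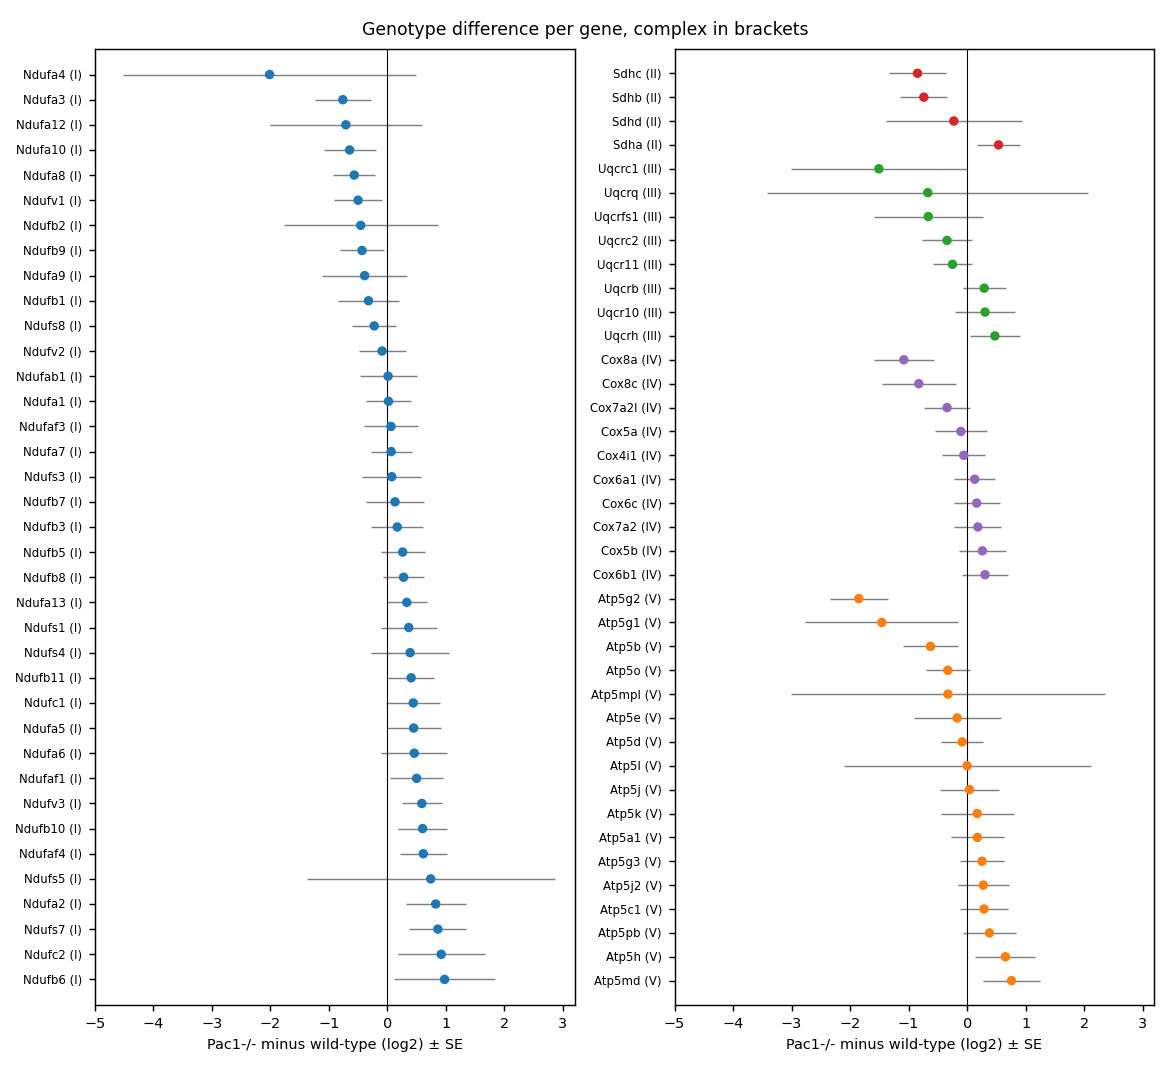
Log2 difference between Pac1-/- and wild-type cells for the 76 tested genes (points, coloured by complex) with its SE from limma (bars, n = 2 arrays per genotype); complex I is on the left and complexes II to V are on the right. Ndufa4, Atp5g2, Uqcrc1, Atp5g1 and Cox8a lie more than 1 log2 unit below 0, and the other points lie within 1 unit of it.

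The median genotype difference of these genes was below 0 in pair 1 and above 0 in pair 2, while single genes had opposite signs in 33 of 76 cases. In pair 1 only 21 of 76 genes read higher in Pac1-/- cells (27.6%, against 50.3% of all tested probe sets and 53.7% of all tested genes by their brightest probe set), with a median difference of -0.18 against 0.008 over all tested probe sets. In pair 2 48 read higher (63.2%, against 55.1% and 57.3%), with a median of 0.37 against 0.13. In 30 genes the difference was below 0 in the first pair and above 0 in the second (39.5%, against 20.8% of all tested probe sets and 21% of all tested genes), and in 3 it was the other way round. Pac1-/- replicate 2 was the highest of the 4 arrays for 41 genes (53.9%, against 34.6% of all tested probe sets and 37.3% of all tested genes). It was also the array with the GAPDH ratio of 191, and the part of that in these values was not tested. Each pair sets 1 culture against 1, so a change in the genotype effect and a difference between single cultures or arrays cannot be told apart.

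**Figure D2:**
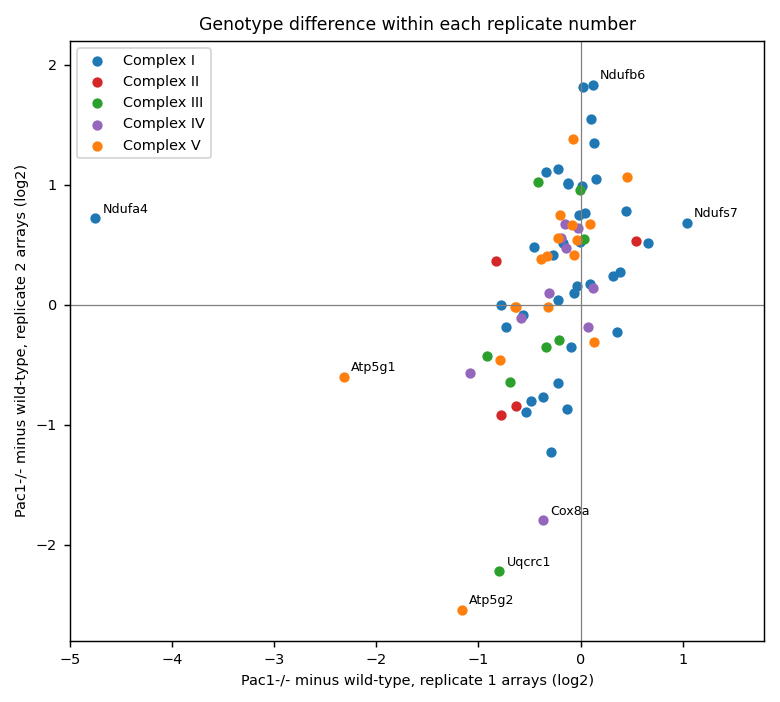
Log2 difference between Pac1-/- and wild-type cells on the replicate 1 arrays (horizontal) and on the replicate 2 arrays (vertical) for the 76 tested genes, coloured by complex. The upper left quadrant, below 0 in the first pair and above 0 in the second, holds 30 genes, and Atp5g2, Atp5g1, Uqcrc1 and Cox8a are below 0 in both.

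Complex I, NADH dehydrogenase, had 37 tested genes, of which 25 were above 0 and 12 below, with a median difference of 0.17. Both Pac1-/- arrays read above both wild-type arrays in 10 of them (27%, against 24.3% of all tested probe sets and 26.1% of all tested genes). In 5 both read below (13.5%, against 13.4% and 11.5%). The median was -0.097 in pair 1 and 0.48 in pair 2. Without Pac1-/- replicate 2 the median over both genotypes turned to -0.083. The 6 core subunits, which between them, though not each, carry the flavin and iron-sulphur clusters, were split, with 3 on either side of 0. Ndufs7, an iron-sulphur subunit near the ubiquinone site, read 257 and 455 in wild-type cells and 529.7 and 730.0 in Pac1-/- cells. Its difference was 0.86 ± 0.49 (SE, n = 2 per genotype; limma adjusted p = 0.866), and both Pac1-/- arrays lay above both wild-type arrays. The other tested Ndufs7 probe set went the opposite way, at -0.51. Ndufv1 and Ndufv2 are given as examples of disagreeing probe sets, chosen after their values were seen. Ndufv1, which binds the flavin, read 387 and 421 in wild-type cells and 353 and 230.2 in Pac1-/- cells, lowest on Pac1-/- replicate 2. Its difference was -0.50 ± 0.41 by this probe set, and 0.30 and 0.15 by the others. Ndufv2 differed by -0.092 with its brightest probe set and by 0.86 with its dimmest, on which the genotypes did not overlap.

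Among the 28 accessory subunits, 19 were above 0 and 9 below, with a median of 0.21. Ndufb1, singled out after its values were seen, was among the 9. It read 163.5 and 84.0 in wild-type cells and 110.7 and 79.2 in Pac1-/- cells. It met the minimum mean intensity only through its wild-type arrays, so the filter favoured a difference below 0 in it. Ndufv3, a small subunit of the flavoprotein part, read 1366 and 1368 in wild-type cells and 2161 and 1954 in Pac1-/- cells. The wild-type arrays were nearly equal and both Pac1-/- arrays were higher, and the difference was 0.59 ± 0.34 (SE; limma adjusted p = 0.866). Ndufa2 read 792 and 448 in wild-type cells and 848 and 1312 in Pac1-/- cells, with a difference of 0.82 ± 0.51 that was 0.10 in pair 1 and 1.55 in pair 2. Ndufb11 read 1659 and 1340.1 in wild-type cells and 1714 and 2277 in Pac1-/- cells, and its 3 probe sets were all above 0, between 0.15 and 0.51. Ndufa1 was alike in the genotypes within its error (0.018 ± 0.38), at 2589 and 3064 in wild-type cells and 2478 and 3282 in Pac1-/- cells. For Ndufc2 and Ndufb6, which were singled out after their values were seen, the differences of 0.92 and 0.98 came from the replicate 2 arrays. Ndufc2 read 1263 and 1288 in pair 1 and 363 and 1274 in pair 2, so wild-type replicate 2 alone was low. Ndufb6 read 333 and 361 in pair 1 and 77 and 274 in pair 2, again with wild-type replicate 2 the lowest. The mean of the Ndufc2 probe sets was -0.034. Without wild-type replicate 2 the Ndufb6 difference was -0.080.

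Ndufa4, named as a complex I subunit but now known to associate with complex IV, had the difference farthest below 0, and 1 array set it. It read 439 and 992 in wild-type cells and 16.4 and 1632 in Pac1-/- cells. Pac1-/- replicate 1 was next to the floor of 16, while Pac1-/- replicate 2 was the highest of the 4. The difference of -2.01 ± 2.50 therefore has no exact size, and without Pac1-/- replicate 1 it was 1.31. Of the 5 complex I assembly factors 3 were tested, and all 3 were above 0. Ndufaf4 read 318 and 216 in wild-type cells and 434 and 371 in Pac1-/- cells, with both Pac1-/- arrays higher and a difference of 0.61 ± 0.41. Ndufaf1 differed by 0.50 ± 0.45 and Ndufaf3 by 0.060 ± 0.46. Ndufaf5 read between 28.8 and 93.1 and Ndufaf7 between 35.4 and 107, and neither was tested.

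Complex II, succinate dehydrogenase, is encoded by 4 nuclear genes and also works in the citric acid cycle. The catalytic flavoprotein gene Sdha and its iron-sulphur partner gene Sdhb lay on opposite sides. Sdha read 735 and 864 in wild-type cells and 1072 and 1248 in Pac1-/- cells, with both Pac1-/- arrays above both wild-type arrays. Its difference was 0.54 ± 0.36 (SE; limma adjusted p = 0.866), almost the same in both pairs (0.54 in pair 1 and 0.53 in pair 2). The other Sdha probe set was at 1.01. Sdhb read 1195 and 971 in wild-type cells and 769.9 and 539.7 in Pac1-/- cells, with both Pac1-/- arrays below, and its difference was -0.74 ± 0.40 (-0.63 in pair 1 and -0.85 in pair 2). Centring each array on its median left 0.0047 for Sdhb, below the 0.66 of all tested probe sets on that scale. The membrane anchor gene Sdhc read 425 and 279 in wild-type cells and 248 and 148 in Pac1-/- cells, also without overlap, with a difference of -0.85 ± 0.49 and of -0.54 by its other probe set. Sdhd, the other anchor, read 167 and 456 in wild-type cells and 94.3 and 588 in Pac1-/- cells. It was low on both replicate 1 arrays and high on both replicate 2 arrays, so the genotypes overlapped at -0.23 ± 1.16.

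Complex III, the cytochrome bc1 complex, had 8 tested genes, 3 above 0 and 5 below, with a median of -0.30. The median was 0.18 without wild-type replicate 2, 0.33 without Pac1-/- replicate 1 and 0.017 with the probe sets of a gene averaged, so its direction did not hold. Uqcrb, the ubiquinone-binding subunit, read 5304 and 4768 in wild-type cells and 5447 and 6949.9 in Pac1-/- cells, with little spread in wild-type cells and a difference of 0.29 ± 0.37. The hinge protein gene Uqcrh read 910.5 and 614 in wild-type cells and 906 and 1189.7 in Pac1-/- cells, nearly the same on both arrays of pair 1, and differed by 0.47 ± 0.42. Uqcr10 differed by 0.31 ± 0.51, with -0.41 in pair 1 and 1.03 in pair 2. The genes of the large core proteins were below 0 without passing the test. Uqcrc2 was at -0.34 ± 0.43 with its brightest probe set but at 0.92 with the other. Uqcrc1 read 83 and 899 in wild-type cells and 47.9 and 193 in Pac1-/- cells. It was higher on replicate 2 in both genotypes and highest on wild-type replicate 2, and its difference was -1.51 ± 1.50. Without wild-type replicate 2 it was 0.21.

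Complex IV, cytochrome c oxidase, had 10 tested genes, 5 above 0 and 5 below, with a median of 0.036. Cox6a1 read 3465 and 3744 in wild-type cells and 3774 and 4114 in Pac1-/- cells, the tightest of the named genes of this complex, with a difference of 0.13 ± 0.35. Its other probe set was at -0.84, and the mean of both turned below 0, to -0.35. Cox5b read 3587 and 2857 in wild-type cells and 3226 and 4551 in Pac1-/- cells (0.26 ± 0.40), and Cox6c read 3557 and 3316 in wild-type cells and 3216 and 4597 in Pac1-/- cells (0.16 ± 0.39). Pac1-/- replicate 2 was the highest array for 6 of the 10 genes, against 34.6% of all tested probe sets and 37.3% of all tested genes. Cox8a lay farthest below 0 of the 10. It read 2500.4 and 3485 in wild-type cells and 1935 and 1004 in Pac1-/- cells, lowest on Pac1-/- replicate 2, and its difference was -1.08 ± 0.52 (SE; limma adjusted p = 0.866), with -0.37 in pair 1 and -1.79 in pair 2. Cox7a2l, known for joining complexes III and IV, read 1388 and 1437 in wild-type cells and 929 and 1334 in Pac1-/- cells (-0.34 ± 0.39), and its 3 probe sets were all below 0.

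Several Cox subunits have a second form that is known from muscle, heart, lung or testis. Of 6 such genes with a probe set here, 5 were below the intensity minimum. Cox4i2, the lung form, read 64.1 and 94.7 in wild-type cells and 44 and 58.8 in Pac1-/- cells. The muscle forms Cox6a2, Cox7a1 and Cox8b read between 37.6 and 72.1, between 8.1 and 40.6, and between 4.0 and 7.3. The testis form Cox6b2 read between 11.2 and 109. The testis form Cox8c was the exception, at 382 and 159.7 in wild-type cells and 180.2 and 108 in Pac1-/- cells, highest on wild-type replicate 1 and lowest on Pac1-/- replicate 2, and its difference was -0.83 ± 0.64. The common subunit gene Cox7c was also below the minimum, at 46.1 and 47 in wild-type cells and 58.2 and 83.7 in Pac1-/- cells, so a dim probe set here does not show that a gene is silent.

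**Figure D3:**
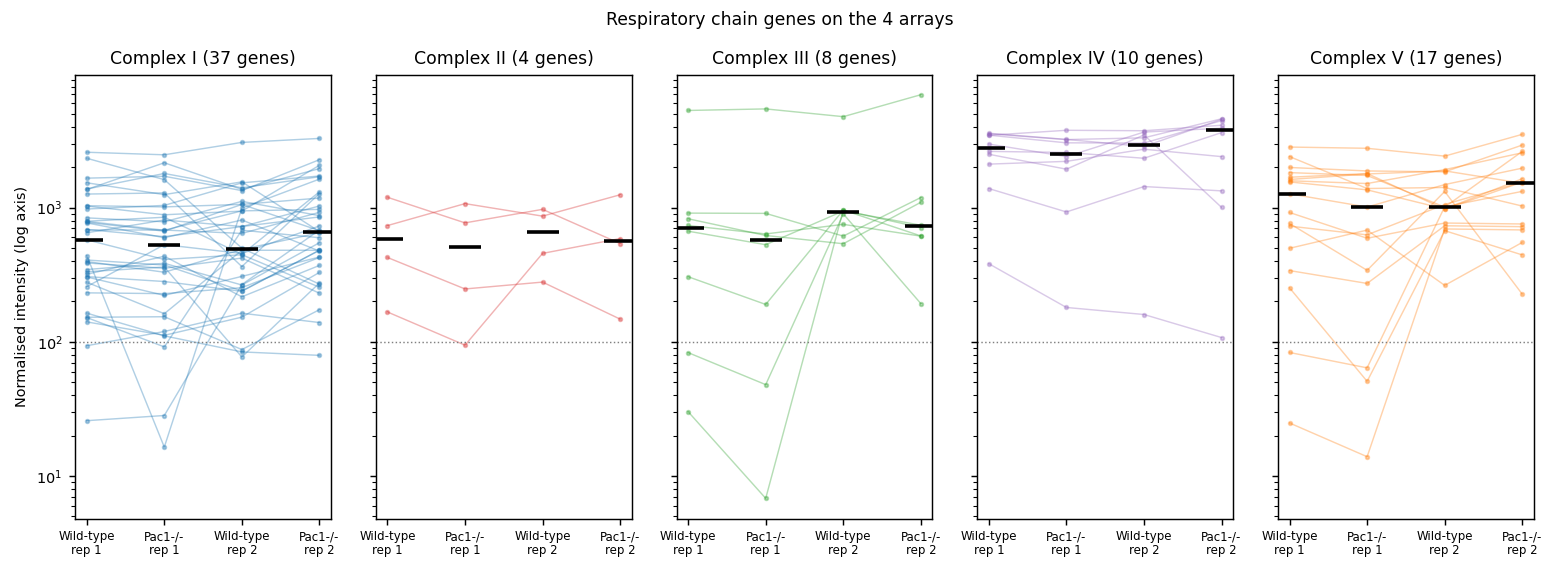
Normalised intensity (log axis) of the brightest probe set of each tested gene on the 4 arrays, in 1 panel per complex; thin lines join the points of a gene, black bars are medians and the dotted line is at 100. Of the 76 genes, 63 stay at or above 100 on all 4 arrays, while in complexes I, III and V a few genes read below 100 on the replicate 1 arrays and far above it on the replicate 2 arrays.

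Complex V, the ATP synthase, had 17 tested genes, 9 above 0 and 8 below, with a median of 0.040. The median was -0.22 in pair 1, where 3 of 17 genes were above 0, and 0.41 in pair 2, where 10 were. The median turned to -0.41 without Pac1-/- replicate 2 and was 0.52 without Pac1-/- replicate 1. In the catalytic F1 part, 2 of 5 subunits were above 0. The catalytic beta subunit gene Atp5b read 2403 and 1414 in wild-type cells and 1389 and 1028 in Pac1-/- cells. Wild-type replicate 1 stood above the other arrays and both Pac1-/- arrays were below both wild-type arrays, with a difference of -0.63 ± 0.47. The alpha subunit gene Atp5a1 read 1586 and 1920.4 in wild-type cells and 1513 and 2565 in Pac1-/- cells (0.17 ± 0.45) and the gamma subunit gene Atp5c1 read 1994 and 1849 in wild-type cells and 1878 and 2927 in Pac1-/- cells (0.29 ± 0.42), each highest on Pac1-/- replicate 2.

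In the membrane part and the stalk, 7 of 12 genes were above 0. Atp5md read 498 and 263 in wild-type cells and 680.2 and 550.4 in Pac1-/- cells, without overlap, with a difference of 0.76 ± 0.49. Atp5h, a stalk subunit singled out after its values were seen, read 1825 and 1009.6 in wild-type cells and 1737 and 2626 in Pac1-/- cells (0.65 ± 0.51), and its difference was -0.071 in pair 1 and 1.38 in pair 2. The inhibitor of the ATP synthase, annotated as Atpif1 and thus outside the chosen names, read 1043 and 410.4 in wild-type cells and 870.3 and 1013 in Pac1-/- cells (0.52 ± 0.61).

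Subunit c, which forms the rotor ring, is encoded by 3 genes that give the same mature protein; their differences were not tested against each other. Atp5g2 read 762 and 1320.5 in wild-type cells and 341 and 226 in Pac1-/- cells. Both Pac1-/- arrays were below both wild-type arrays, and the difference of -1.85 ± 0.50 (SE, n = 2 per genotype; 95% confidence interval -3.28 to -0.43) passed the unadjusted threshold of 0.05 but not limma's adjusted one (adjusted p = 0.866). It lay between -2.25 and -1.46 with any 1 array left out, and was -1.17 with median centring, where it no longer passed the unadjusted threshold. Nor did it pass without wild-type replicate 2, without Pac1-/- replicate 1 or without Pac1-/- replicate 2. Its limma adjusted p lay between 0.377 and 0.99 over the alternatives, all on the same side of the threshold. Atp5g3 read 2829.7 and 2422 in wild-type cells and 2770.4 and 3519.6 in Pac1-/- cells (0.25 ± 0.37), alike between the genotypes within its error. Atp5g1 read 252 and 673 in wild-type cells and 50.7 and 444 in Pac1-/- cells, lowest on Pac1-/- replicate 1, with a difference of -1.46 ± 1.31 and overlapping genotypes; without Pac1-/- replicate 1 it was 0.11.

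The promoters of the subunit c genes are shown because the genes encode the same mature protein and only Atp5g2 passed the unadjusted threshold; that of Sdha is shown because it holds 3 matches of the nuclear respiratory factor 1 (NRF1) motif. NRF1 and the ETS factor GABP are known to bind the promoters of many respiratory chain genes, as is YY1. The sequences are from RefSeq (GRCm38.p6), 5' to 3' on the strand of the gene, from 250 bases before to 50 after the start, with matches in capitals.
Atp5g1, chr11:96075582-96075881, minus strand: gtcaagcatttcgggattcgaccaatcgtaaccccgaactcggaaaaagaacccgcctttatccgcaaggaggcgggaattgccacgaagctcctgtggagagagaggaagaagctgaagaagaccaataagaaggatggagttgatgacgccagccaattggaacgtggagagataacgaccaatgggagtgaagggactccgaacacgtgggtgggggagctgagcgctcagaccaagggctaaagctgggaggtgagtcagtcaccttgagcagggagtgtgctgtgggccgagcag
Atp5g2, chr15:102670998-102671297, minus strand: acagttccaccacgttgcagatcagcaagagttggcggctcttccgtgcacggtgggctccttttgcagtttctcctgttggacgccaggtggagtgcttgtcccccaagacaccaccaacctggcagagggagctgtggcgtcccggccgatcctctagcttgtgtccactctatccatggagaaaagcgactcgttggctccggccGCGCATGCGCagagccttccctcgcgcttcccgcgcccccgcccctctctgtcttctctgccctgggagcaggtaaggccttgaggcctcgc
Atp5g3, chr2:73911277-73911576, minus strand: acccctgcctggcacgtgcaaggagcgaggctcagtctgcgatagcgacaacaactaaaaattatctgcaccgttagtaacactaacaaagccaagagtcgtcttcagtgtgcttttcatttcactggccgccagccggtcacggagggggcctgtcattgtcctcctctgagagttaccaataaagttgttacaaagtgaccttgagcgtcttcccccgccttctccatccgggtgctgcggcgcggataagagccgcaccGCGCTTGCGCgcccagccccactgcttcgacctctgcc
Sdha, chr13:74350191-74350490, minus strand: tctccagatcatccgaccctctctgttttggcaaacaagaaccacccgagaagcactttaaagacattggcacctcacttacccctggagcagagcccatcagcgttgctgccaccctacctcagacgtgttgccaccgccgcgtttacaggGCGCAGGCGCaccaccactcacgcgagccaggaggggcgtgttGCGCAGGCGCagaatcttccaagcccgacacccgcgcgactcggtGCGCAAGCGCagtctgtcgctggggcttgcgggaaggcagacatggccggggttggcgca

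In these windows the NRF1 core was searched as GCGCA, any base, then GCGC, the ETS core as CCGGAAG and the YY1 core as AAGATGGC, on both strands. Of the 84 genes, 70 had an entry, with 75 promoters. The NRF1 letters were in 22.7% of these promoters, against 4.6% of all 32851 promoters of the same length. The ETS letters were in 24% against 8.86%, and the YY1 letters in 12% against 2.75%. The Atp5g2 and Atp5g3 promoters hold 1 NRF1 match each, and that of Atp5g1 holds none of the 3 motifs in this window. A match describes the letters only, and no binding was measured.

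Another 52 probe sets of the same genes passed the intensity minimum. They gave a median difference of 0.051, with 27 above 0, 25 below, and 0 past the unadjusted threshold (3.38% of all tested probe sets passed it). In pair 1 28.8% of them were above 0, and in pair 2 59.6%. With 2 or more tested probe sets, 18 of 36 genes had all of them on the same side of 0. By the 2 brightest, 20 of 36 genes agreed in sign (55.6%), against 50.8% of 1468 genes in the whole table. The median gap between these probe sets was 0.49 for the genotype difference, against 0.79 over the 1468 genes. Among the genes whose probe sets agreed in sign were Sdha and Uqcrb (above 0) and Sdhc, Cox8a, Ndufa3 and Ndufs8 (below 0). Some of these signs had large errors, as in the second Cox8a probe set (-1.41 ± 2.70) and in Ndufs8 probe sets (-1.06 ± 1.86 and -0.49 ± 1.57). Those that disagreed included Ndufc2 (0.92 and -0.99), Ndufs7, Uqcrc2 and Ndufc1 (0.44 and -1.42).

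A part of the respiratory chain probe sets followed the replicate number far more than the genotype. In 11 of the 76 genes both replicate 2 arrays exceeded the replicate 1 array of the same genotype by over 1 log2 unit (14.5%, against 8.48% of all tested probe sets and 6.4% of all tested genes). In 1 gene, Ndufa12, both were lower by as much (1.32%, against 8.98% and 9.08%). The 11 were Ndufa4, Ndufb2, Ndufs5, Sdhd, Uqcrc1, Uqcrfs1, Uqcrq, Atp5e, Atp5g1, Atp5l and Atp5mpl. Uqcrq, a small subunit of complex III, read 30.1 and 6.8 in pair 1 and 957 and 709.6 in pair 2, wild-type first. Atp5mpl, a small subunit of the ATP synthase, read 24.8 and 13.9 in pair 1 and 694 and 682 in pair 2, and Ndufs5 read 25.8 and 28.2 in pair 1 and 267 and 681 in pair 2. Atp5l, the g subunit of the ATP synthase, read 83.2 and 63.9 in pair 1 and 1016 and 1322 in pair 2. Their genotype differences of -0.67 ± 2.74, -0.33 ± 2.68, 0.74 ± 2.12 and -0.0007 ± 2.11 therefore have errors above 2 log2 units and carry no direction. Ndufa12 read 2334 and 1617 in pair 1 and 499 and 269 in pair 2, but its other tested probe sets differed by less than 1 log2 unit between the replicates.

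For some genes this gap was seen with 1 probe set and not with another. Cox8a read 44.5 and 40.8 in pair 1 and 3469.8 and 536 in pair 2 with its second tested probe set, but 2500.4 and 1935 in pair 1 and 3485 and 1004 in pair 2 with its brightest. Atp5a1 read 46.5 and 16.9 in pair 1 and 2852 and 1526 in pair 2 with its second, and 1586 and 1513 in pair 1 and 1920.4 and 2565 in pair 2 with its brightest. For Cox7a2, a common subunit of complex IV, these were 50 and 46.4 in pair 1 and 1177 and 1947 in pair 2, and 3469.8 and 3043 in pair 1 and 3030.1 and 4454 in pair 2. For Atp5pb, the b subunit of the ATP synthase stalk, they were 28.6 and 3.5 in pair 1 and 1132 and 1496 in pair 2, and 1685 and 1797 in pair 1 and 974 and 1550.5 in pair 2. In each case the second probe set was far dimmer in pair 1 than in pair 2, and the brightest was not. Of the 2 brightest probe sets of a gene, 8 of 36 respiratory chain genes had replicate differences more than 2 log2 units apart (22.2%), against 26.4% of 1468 genes, so such gaps were about as frequent elsewhere. By probe set type, both replicate 2 arrays were higher by over 1 log2 unit in 12 of 53 probe sets of the plain type, which is designed for 1 transcript (22.6%, against 8.31% of all such tested probe sets). This was so in 0 of 23 ending in _x_at, a type that may bind several transcripts (6.93% of all such). For the remaining types it was so in 2 of 15 ending in _s_at (13.3%, against 8.18% of all such). Of those ending in _a_at it was 4 of 37 (10.8%, against 9.68%). The part of the beta-actin ratios, which were highest on the replicate 1 arrays, in these gaps was not tested.

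**Figure D4:**
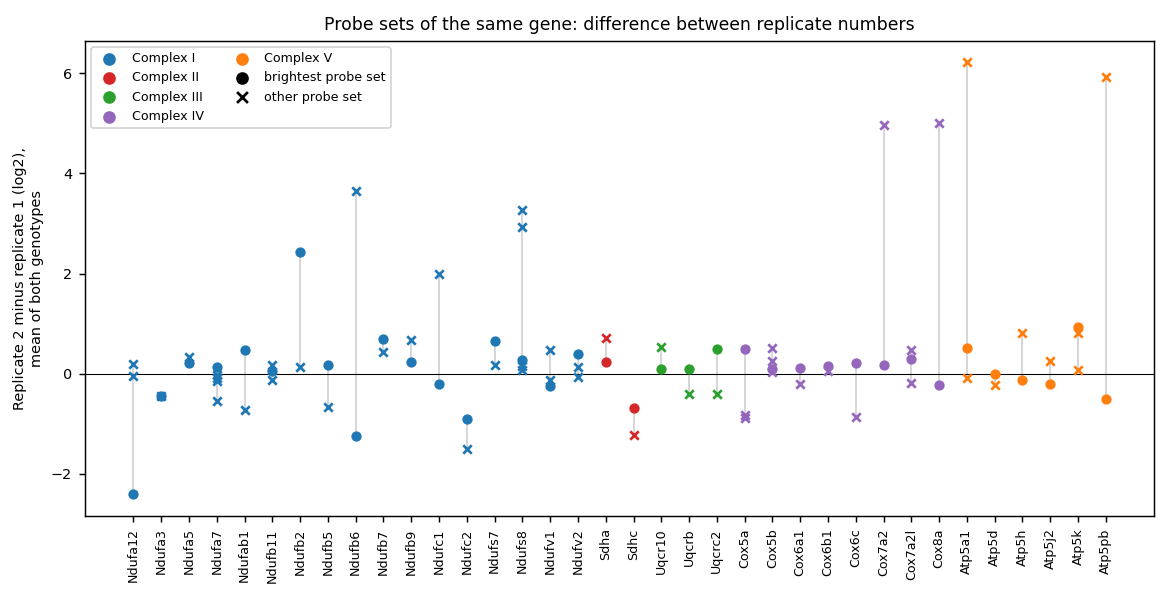
Log2 difference between the replicate 2 and replicate 1 arrays, averaged over the genotypes, for every tested probe set of the 36 genes with 2 or more (circles, the brightest; crosses, the others; grey lines join a gene; colours are complexes). Most probe sets lie within 1 log2 unit of 0, while probe sets of Atp5a1, Atp5pb, Cox7a2, Cox8a, Ndufb2, Ndufb6 and Ndufs8 lie above 2 and 1 of Ndufa12 lies below -2.

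Other mitochondrial genes were taken from lists by name. None of their members passed limma's adjusted test. The electron carriers and complex subunits with other names had 5 tested genes of 12 listed, 2 above 0 and 3 below. Cytochrome c (Cycs), which links complexes III and IV, read 23.8 and 5.2 in pair 1 and 1195 and 1785 in pair 2, the same replicate pattern as Uqcrq, and Cyc1 differed by -0.38 ± 0.42. Of the further assembly factors, 10 of 19 tested were above 0 and 9 below (median 0.079). Among those above 0, Coa6 read 100.4 and 70.1 in wild-type cells and 175.2 and 188.3 in Pac1-/- cells. It met the minimum mean intensity only through its Pac1-/- arrays, so the filter favoured a difference above 0 in it. The mitochondrial ribosomal proteins, which make the subunits encoded by mitochondrial DNA, had 28 of 60 above 0 and 32 below (median -0.057). Their medians were -0.24 in pair 1 and 0.12 in pair 2, against 0.008 and 0.13 over all tested probe sets. Those of the further assembly factors were -0.16 and 0.45. Carriers, pores and import proteins had 14 of 23 above 0 (median 0.050), with -0.20 in pair 1 and 0.24 in pair 2.

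The enzymes of pyruvate dehydrogenase and the citric acid cycle, listed together with pyruvate carboxylase (Pcx), had 8 of 14 tested genes above 0 and 6 below. Their median was 0.17, with 0.12 in pair 1 and 0.20 in pair 2, and 0 passed the unadjusted threshold. Malate dehydrogenase Mdh2 read 1811 and 989 in wild-type cells and 2434 and 2276 in Pac1-/- cells (0.81 ± 0.47), and isocitrate dehydrogenase Idh2 read 377 and 186 in wild-type cells and 93.2 and 107 in Pac1-/- cells (-1.41 ± 0.51). The regulators of mitochondrial biogenesis had 8 tested genes of 21 listed and 19 on the array. Of these 8, 7 were above 0 (87.5%, against 52.8% of all tested probe sets). The median of the 8 was 0.48, with 0.38 in pair 1 and 0.59 in pair 2. In 2 of them the unadjusted threshold was passed upward (25%, against 2.25%), both named after their values were seen. Polrmt and Gabpa (66.1 and 105.7 in wild-type cells, 110 and 130 in Pac1-/- cells) met the intensity minimum only through their Pac1-/- arrays. The filter thus favoured a difference above 0 in them, and no conclusion is drawn from these shares. Polrmt, the mitochondrial RNA polymerase, read 53.8 and 82.9 in wild-type cells and 216 and 162 in Pac1-/- cells, below 100 on both wild-type arrays, with a difference of 1.49 ± 0.44 (SE; limma adjusted p = 0.866). Ssbp1, the mitochondrial single-stranded DNA binding protein, read 199 and 136 in wild-type cells and 514 and 359 in Pac1-/- cells, without overlap, with a difference of 1.38 ± 0.44 that was nearly the same in both pairs (1.37 in pair 1 and 1.40 in pair 2; limma adjusted p = 0.866). Tfam, the packaging factor of mitochondrial DNA, was at 0.46 ± 0.55, and Nrf1 at 0.15 ± 0.36.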

How the data were processed

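The authors deposited linear intensity values per probe set of the Affymetrix mouse 430A array, and per the submitters' processing notes these come from MAS5. The series' design text describes RMA instead, then eBayes of limma and a minimum mean intensity of 100. Between 500 and 1000 ng of RNA per culture had been amplified. Arrays had a common trimmed mean (150.06 to 150.08), and their number limits the precision.

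Of 22690 probe sets, 64 controls were left out; 20380 of the others have 1 gene symbol, 691 several and 1555 none. Arrays were quantile normalised, then floored at 16 and put on the log2 scale. The 7770 probe sets with a mean of at least 100 were tested with limma 3.58.1 in R 4.3.3 (a two-sided test with no term but genotype, called at a Benjamini-Hochberg adjusted 0.05, 2 residual and 1.7 prior degrees of freedom). A gene stands by its brightest probe set. An exact permutation test cannot give a p below 0.3333 here. The fit code was also run on simulated arrays with independent noise of the same spread for all probe sets. That run lacked the shared deviations of same-numbered arrays, so no conclusion about these data is drawn from it. Figures were drawn with matplotlib 3.10.9.

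Named genes were all Sdh genes; in each other complex the 3 brightest, the 3 of lowest p and the 1 with the largest replicate difference; the tissue forms of Cox subunits; Ndufaf genes; subunit c genes and Atpif1. Ndufa4, Ndufa12, Ndufb6, Ndufc2, Uqcrfs1, Cox7a2, Atp5h, Atp5l and Atp5pb and the examples of disagreeing or agreeing probe sets were chosen after their values were seen, as were the genes named in the other lists. The members and lists were chosen with earlier results of these data known. Alternatives were the values as deposited, median centring, no minimum, the minimum after the adjustment, a floor of 64, an intensity trend, the replicate block, each array left out, and averaged probe sets.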

Additional observations from a re-analysis of the deposited data

How the results depend on the processing

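No probe set and no respiratory chain gene passed limma's adjusted test under any alternative, including the replicate block and, over 4998 genes, averaged probe sets (147 genes past the unadjusted threshold, among them Atp5g2). At the unadjusted threshold the main fit gave 263 probe sets and 1 of the genes. These were 1762 and 7 with no intensity minimum, 666 and 6 with the minimum after the adjustment, and 899 and 3 with the replicate block. With median centring 0 of the genes passed. With 1 array left out the counts lay between 79 and 408 for probe sets, 0 and 3 for the genes, and 27 and 56 for genes above 0. The labels do not say that a number marks a shared batch; deviations of same-numbered arrays from the genotype means correlated at 0.751 over tested probe sets, with only 2 pairs.

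Median centring moved the median difference to 0.85 over all the genes and to 0.94, 0.24, 0.45, 0.81 and 0.85 in complexes I to V. That of complex III was 0.017 with averaged probe sets. With 1 array left out the medians lay between -0.19 and 0.47 over all the genes, between -0.083 and 0.50 in complex I, -0.57 and -0.18 in II, -0.43 and 0.33 in III, -0.11 and 0.22 in IV and -0.41 and 0.52 in V; the cause was not tested.

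Of 42 genes followed, 17 kept their sign under every alternative, among them Atp5g2, Sdha, Sdhc, Cox8a, Ndufs7 and Ndufv3. Median centring turned Sdhb (0.0047), Sdhd (0.48), Uqcrc2 (0.42), Uqcrfs1 (0.11), Cox7a2l (0.47), Atp5b (0.14), Atp5l (0.74) and Atp5mpl (0.23). Averaged probe sets turned Ndufc2 (-0.034), Uqcrc2 (0.29), Cox6a1 (-0.35) and Atp5a1 (-0.39). The values as deposited turned Ndufaf3 (-0.15) and Atp5l (0.12), and the floor of 64 turned Atp5l (0.0010). With 1 array left out the sign was lost in Ndufa1 (between -0.18 and 0.22), Ndufa12 (between -2.01 and 0.58), Ndufa4 (between -5.34 and 1.31), Ndufaf3 (between -0.34 and 0.46), Ndufb6 (between -0.080 and 2.03), Ndufs5 (between -1.56 and 3.04), Sdhd (between -1.55 and 1.09), Uqcr10 (between -0.11 and 0.72), Uqcrc1 (between -3.23 and 0.21), Uqcrfs1 (between -1.51 and 0.18), Uqcrq (between -3.41 and 2.06), Cox6c (between -0.095 and 0.42), Cox7a2 (between -0.092 and 0.46), Atp5a1 (between -0.21 and 0.56), Atp5c1 (between -0.032 and 0.61), Atp5g1 (between -3.02 and 0.11), Atp5l (between -2.19 and 2.19), Atp5mpl (between -3.04 and 2.38), Atp5pb (between -0.014 and 0.78).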
